A study of Mus musculus with 4 samples.

Results

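The genes described here are the 7 of 32285 in the matrices that were listed by symbol as mast cell granule proteases. They comprise 4 genes of the chymase locus (Mcpt2, Mcpt4, Cma1 and Cma2), the carboxypeptidase Cpa3, and the tryptases Tpsb2 and Tpsab1. All 7 were present in every matrix. Of these, Mcpt2, Cma1, Cpa3, Mcpt4 and Tpsb2 were used by the study itself to mark its mast cell and basophil cluster on the same libraries, so high levels in mast cells are no independent finding for them.

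Mast cells keep ready-made serine proteases and carboxypeptidase A3 in their secretory granules, bound to serglycin proteoglycan, and release them together with histamine when the cell degranulates. As classes, chymases cleave after aromatic residues and tryptases after basic residues, and carboxypeptidase A3 trims C-terminal ends. This need not hold for every member, and no cleavage was measured here. In rodents the set of proteases differs between connective tissue mast cells, such as those of skin, and mucosal mast cells, and so the set is commonly used to describe a mast cell population.

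CD45+ leukocytes were sorted from collagenase-digested hindpaws of male mice and profiled by droplet single-cell RNA-seq (10x Genomics Chromium). In this method each captured molecule is tagged with the barcode of its droplet and a molecular identifier (UMI), so that it counts 1 time at any transcript length. The groups were Lepr WT/WT littermates (WT) and Lepr db/db mice (DB, C57BLKS/J-Dock7m+/+Leprdb, in which the leptin receptor is defective and obesity with diabetes develops), at 12 and 21 weeks of age. Each of the 4 conditions was 1 library pooled from 2 to 3 mice, so differences between conditions could be neither tested nor checked in replicates, and all intervals are exact, at the 95% level, for the error of counting alone. Cell Ranger 5.0.0 was named in the headers at 12 weeks and 6.0.0 at 21 weeks, so software and age cannot be told apart.

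Filters of 200 or more detected genes and no more than 10% mitochondrial UMIs left 5271 barcodes in WT against 6552 in DB at 12 weeks, and 7270 against 8707 at 21 weeks, with median depths between 5355 and 8000.5 UMIs. Libraries shared 237 kept barcode sequences over all pairs, of which 146 were between the libraries of 21 weeks, and none was a mast cell barcode with at least 3 markers (defined below) in both libraries. Lepr had 16 to 30 UMIs per library, too few to check the genotype. The barcodes left out by these filters held 5964, 1736, 1579 and 411 UMIs of the 7 genes. Sets of 4 values are given here and below for the younger libraries first, WT before DB, and then for the older libraries, WT before DB.

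The members lie at 3 places in the genome (GRCm38, GENCODE M21 gene models). The chymase locus on chromosome 14 holds Cma1 (chr14:55941451-55944675, minus strand), Cma2 (chr14:55950980-55974031, plus strand), Mcpt2 (chr14:56042041-56044642, plus strand) and Mcpt4 (chr14:56059629-56062313, minus strand). The tryptases lie side by side on chromosome 17, Tpsab1 at chr17:25343245-25345562 on the minus strand and Tpsb2 at chr17:25366305-25369098 on the plus strand. Cpa3 stands alone at chr3:20215620-20242181, minus strand. GENCODE lists all 7 as protein coding, whereas RefSeq lists Tpsab1 as a transcribed pseudogene.

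Because the reads come from transcript 3′ ends and Cell Ranger counts reads that map to 1 gene, members with a close copy are less certain. Over the last 500 bases of the transcripts, Cma2 was 97.8% identical to Mcpt9 across 362 aligned bases and Cma1 was 96.9% identical across 295 bases to Gm48934, a gene model not used here. Mcpt4 was 89.3% identical to Cma2 across 363 bases. Tpsb2 and Tpsab1 were 82.6% identical across 265 bases, and Mcpt2 was 75.4% identical to Mcpt4 across 496 bases. Cpa3 had no match. The counts of Cma2 are therefore uncertain, and part of its reads may have been discarded or credited to Mcpt9.

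RefSeq promoter sequence (GRCm38.p6) was given for 3 members, which are shown because all 3 are transcribed in these cells and GATA factors such as Gata2 are part of the marker list used below. Each line gives the 250 bases before the start, on the gene's strand, with GATAA or TTATC (the GATA motif on either strand) and TATAAA (searched on the gene's strand) in capitals. The windows are chr14:56062311-56062560 for Mcpt4, chr14:55944676-55944925 for Cma1 and chr3:20242182-20242431 for Cpa3, all on the minus strand.
Mcpt4: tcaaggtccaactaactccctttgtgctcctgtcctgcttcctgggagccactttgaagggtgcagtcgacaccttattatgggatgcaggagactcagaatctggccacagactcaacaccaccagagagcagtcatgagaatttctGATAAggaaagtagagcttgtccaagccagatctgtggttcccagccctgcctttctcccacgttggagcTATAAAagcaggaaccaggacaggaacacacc
Cma1: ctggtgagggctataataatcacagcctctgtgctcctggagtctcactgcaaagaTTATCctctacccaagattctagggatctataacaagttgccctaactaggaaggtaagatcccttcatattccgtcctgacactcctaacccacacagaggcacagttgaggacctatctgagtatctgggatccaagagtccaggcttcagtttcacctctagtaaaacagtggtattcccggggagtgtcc
Cpa3: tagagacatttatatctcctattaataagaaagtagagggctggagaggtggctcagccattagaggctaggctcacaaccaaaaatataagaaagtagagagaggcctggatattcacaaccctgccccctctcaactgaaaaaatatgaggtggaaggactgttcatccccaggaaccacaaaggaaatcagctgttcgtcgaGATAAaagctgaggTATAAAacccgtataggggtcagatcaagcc
The GATA motif began 102 bases before the start of Mcpt4, 194 bases before that of Cma1 and 45 bases before that of Cpa3, and TATAAA began 32 bases before Mcpt4 and 31 bases before Cpa3. Over all 32851 promoter windows of the same length, 22.6% held the GATA motif and 7.59% held TATAAA. Neither CACGTG nor CATGTG (on either strand), found in 6.02% and 12.3% of all windows, was in these 3 windows. These are matches of letters and not sites of binding.

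Mast cells were first taken by the rule of at least 1 UMI of Kit (the stem cell factor receptor), fewer than 5 UMIs of C1qa, C1qb and C1qc together, and no Cd3e. This Kit gate held 662 barcodes in WT against 929 in DB at 12 weeks, and 885 against 2463 at 21 weeks. The label was checked against 9 mast cell markers that are neither members nor Kit (Fcer1a, Ms4a2, Hdc, Gata2, Cyp11a1, Mrgprb1, Mrgprb2, Hpgds and Slc18a2), and it held only in part. At least 3 of the 9 were detected in 46.4% of the gate in WT against 26.6% in DB at 12 weeks, and 22.4% against 42.9% at 21 weeks, and none of the 9 in 44.4%, 62.3%, 68.1% and 46.7%.

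The Kit-positive barcodes with no mast cell marker were deeper and carried markers of other leukocytes. Their median depth was 6133 to 8271 UMIs, against 1559 to 2120 in those with 3 or more markers. At least 2 of 5 ILC2 markers (Gata3, Il7r, Il13, Rora and Lmo4) were detected in 74.1% to 97.5% of them, and at least 2 of 5 dendritic cell markers (Cd74, H2-Aa, H2-Ab1, H2-Eb1 and Flt3) in 86.1% in WT against 66.0% in DB at 12 weeks, and 85.2% against 20.2% at 21 weeks. Markers of these lineages were not particular to the barcodes without mast cell markers. Among kept barcodes outside the Kit gate in 12-week-WT, at least 2 dendritic cell markers were detected in 89.7% and at least 2 ILC2 markers in 39.5%. At least 2 dendritic cell markers were in 93.2% of macrophage barcodes (defined below) of that library, so these genes were not particular to dendritic cells. The shares of 12-week-WT do not stand for the other libraries. Outside the Kit gate Cd74 was detected in 89.5% of barcodes in 12-week-WT and 35.3% in 21-week-DB. Il7r was detected in 32.2% and 59.9%, Gata3 in 18.8% and 34.1%, Rora in 30.4% and 54.5%, Il13 in 3.71% and 8.87%, and Lmo4 in 59.2% and 58.0%. In the barcodes with 3 or more mast cell markers, at least 2 ILC2 markers were detected in 19.5%, 22.7%, 26.8% and 35.3% and at least 2 dendritic cell markers in 53.7%, 27.9%, 54.0% and 5.68%. The 7 proteases made up between 0.00235% and 0.00497% of the UMIs of barcodes with no mast cell marker.

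The barcodes with 3 or more markers carried nearly all of the protease UMIs of the Kit gate, 99.4% in WT against 99.0% in DB at 12 weeks, and 99.1% against 98.6% at 21 weeks, while holding only 17.9%, 9.35%, 6.65% and 17.7% of its total UMIs in the same order. A level scaled to the UMIs of the Kit gate thus carries the share of mast cells in the gate as well as the level in each cell. The levels were therefore also computed in the barcodes of the Kit gate with at least 3 markers, called marker-supported mast cells, which numbered 307 in WT against 247 in DB at 12 weeks, and 198 against 1056 at 21 weeks. This number of markers was chosen after the data were seen.

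**Figure D1:**
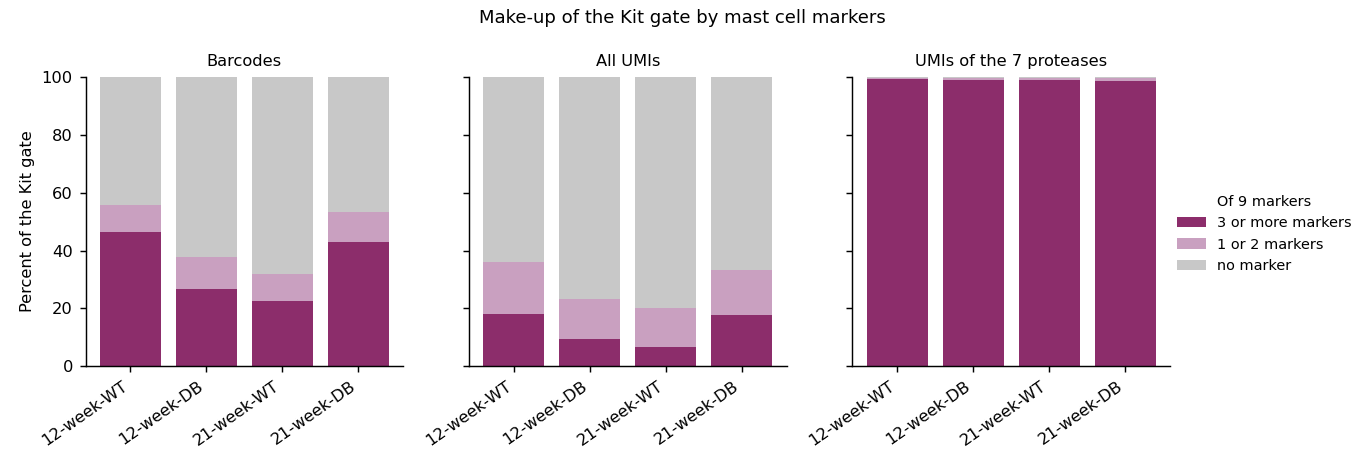
Make-up of the Kit gate in each library by the number of mast cell markers detected (of 9), as percent of its barcodes (left), of all its UMIs (middle) and of the UMIs of the 7 proteases (right). Barcodes with 3 or more markers hold 6.65% to 17.9% of the UMIs of the gate and 98.6% to 99.4% of its protease UMIs.

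In marker-supported mast cells the 7 genes took 13.4% of all UMIs in WT against 12.1% in DB at 12 weeks, and 9.70% against 6.25% at 21 weeks. Mcpt2 had the most UMIs of all genes in every library, and Cma1 ranked 2, 2, 2 and 3 in the same order. The whole set was found in most single cells. All 7 genes were detected in 82.4%, 88.7%, 84.8% and 84.7% of these barcodes.

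Among the chymase locus genes, Mcpt2, a protease best known from mucosal mast cells, was at 56623 CPM (UMIs of the gene per 1000000 UMIs of these barcodes) in WT against 51323 in DB at 12 weeks, and 44891 against 24717 at 21 weeks. Its lowest level was thus in 21-week-DB. Cma1, the alpha-chymase (also called Mcpt5) of connective tissue mast cells, was at 26825, 23971, 20645 and 13884 CPM. Mcpt4, the main beta-chymase of mouse connective tissue mast cells, stood at 12881, 10170, 8465 and 5133. Cma2, a chymase paralog, was at 10478, 9188, 5382 and 3465 CPM. The order of the libraries in CPM was the same for these 4 genes, 12-week-WT above 12-week-DB above 21-week-WT above 21-week-DB. Their counting intervals did not overlap, but the share of all genes with such an order was not computed. The middle step was not stable. For Mcpt2 the median per 10000 UMIs of a barcode was 413 in 12-week-DB and 422 in 21-week-WT. Over 13 alternative settings the log2 ratio of 21-week-WT over 12-week-WT reached -0.093 for Mcpt2 and -0.097 for Cma1. That of 12-week-DB over 12-week-WT was at most -0.104 and -0.102.

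Cpa3, the carboxypeptidase, was at 13493 CPM in 12-week-WT (95% interval 13235 to 13755) and 13459 in 12-week-DB (13155 to 13768), which could not be told apart by counting error. It was lower in 21-week-WT, at 8142, and lowest in 21-week-DB, at 5192. Of the tryptases, Tpsb2 (also called Mcpt6), the tryptase of connective tissue mast cells, was at 10839, 8823, 7148 and 5382 CPM. It followed the order of the chymases.

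Tpsab1, the second tryptase gene (also called Mcpt7, a transcribed pseudogene in RefSeq), had another order of transcript levels, and its protein was not measured. It was at 2649 CPM (95% interval 2536 to 2767) in WT against 3890 (3727 to 4058) in DB at 12 weeks, and 2305 (2176 to 2441) against 4775 at 21 weeks (4680 to 4872). Both DB libraries were above both WT libraries, without overlap of the intervals. The share of all genes with such an order was not computed, and the levels of Hdc, given below, had it too. It was the lowest of the 7 in all 3 libraries other than 21-week-DB, where Cma2 was lower.

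**Figure D2:**
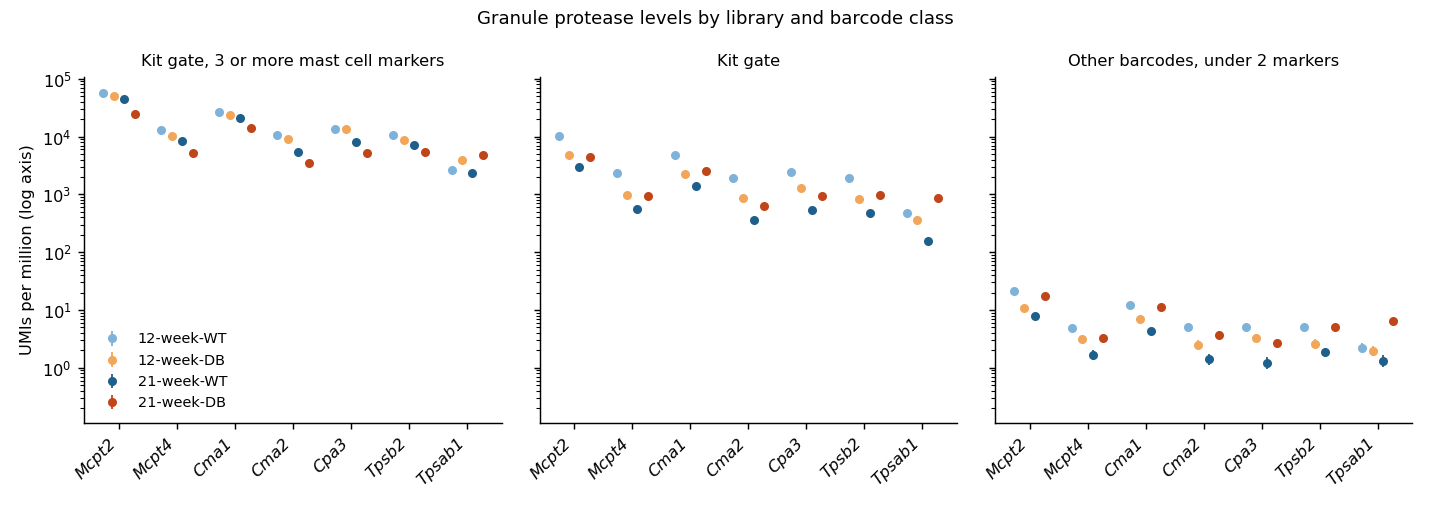
CPM of each protease (log axis) in marker-supported mast cells (left), in the whole Kit gate (middle) and in other barcodes with under 2 mast cell markers (right), 1 point per library with its exact 95% Poisson interval (mostly smaller than the point). On the left 21-week-DB is lowest for every gene except Tpsab1, for which it is highest.

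The comparison of DB with WT asked how the proteases differ with the db/db genotype at each age. In marker-supported mast cells at 12 weeks, the summed proteases were slightly lower in DB, with a log2 ratio of -0.15 (95% interval -0.16 to -0.13). No member passed 2-fold in either direction, where 1.03% of 4086 genes with at least 50 UMIs over both libraries passed 2-fold higher and 0.93% passed 2-fold lower. Tpsab1 had a log2 ratio of 0.55 (0.47 to 0.64), the only one of the 7 above 0. Mcpt4 had -0.34 (-0.39 to -0.29) and Tpsb2 -0.30 (-0.35 to -0.25), and Cpa3 was at 0.00 with an interval of -0.05 to 0.04 and was above 0 in 4 of 13 alternative settings. The median over the members was -0.16, against -0.03 over all genes tested.

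At 21 weeks the same comparison gave a log2 ratio of -0.63 (-0.65 to -0.62) for the summed proteases. Tpsab1 alone passed 2-fold, upward, with a log2 ratio of 1.05 (0.96 to 1.14), against 4.78% of 5645 genes that passed 2-fold higher, and no member passed 2-fold lower, against 2.89%. The other 6 genes were lower in DB, with log2 ratios of -0.41 to -0.86. Mcpt2 had the lowest ratio, -0.86 (-0.88 to -0.84), and Tpsb2, the paralog of Tpsab1, was at -0.41 (-0.46 to -0.35). The median over the members was -0.64 and that over all genes tested was 0.00. At 1.5-fold, 4 members passed lower, against 12.3% of genes. These calls depended on the setting. Without barcodes with 2 markers of another lineage (dendritic cell, macrophage and basophil markers not counted), Tpsab1 was at 0.93 and Mcpt2 passed 2-fold lower at -1.09. With members left out of the denominator Tpsab1 was at 0.997.

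The whole Kit gate, in which the share of marker-supported mast cells differed between the libraries, gave other ratios. The summed proteases were at 24082 CPM in WT against 11413 in DB at 12 weeks, and 6509 against 11242 at 21 weeks. At 12 weeks all 7 ratios of DB over WT were below 0 and 5 members passed 2-fold lower (Mcpt2, Mcpt4, Cma1, Cma2 and Tpsb2), against 4.5% of 10213 genes, and none passed 2-fold higher, against 1.7%. At 21 weeks all 7 ratios were above 0, and Tpsb2 (log2 ratio 1.01, 0.95 to 1.06) and Tpsab1 (2.48, 2.39 to 2.57) passed 2-fold higher, against 8.3% of 10981 genes, with none lower, against 7.59%. At 1.5-fold, 6 members passed higher, against 21.1%. Of the 11 genes of mast cell identity and their regulators described below, 2 passed 2-fold lower in DB at 12 weeks in this gate. At 21 weeks 8 of them passed 2-fold higher. Such differences in the Kit gate were thus not particular to the proteases. The call of Tpsb2 at 21 weeks held in 4 of 13 alternatives and that of Tpsab1 in 13, and the 5 calls at 12 weeks each held in 8 or 9.

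The direction of DB over WT at 21 weeks thus depended on the barcodes used for 6 of the 7 genes. Mcpt2 had a log2 ratio of 0.56 in the Kit gate and -0.86 in marker-supported mast cells, and Cma1 had 0.85 and -0.57. Tpsab1 was above 0 in both. Beside these ratios, the marker-supported mast cells held 6.65% of the UMIs of the Kit gate in 21-week-WT and 17.7% in 21-week-DB.

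**Figure D3:**
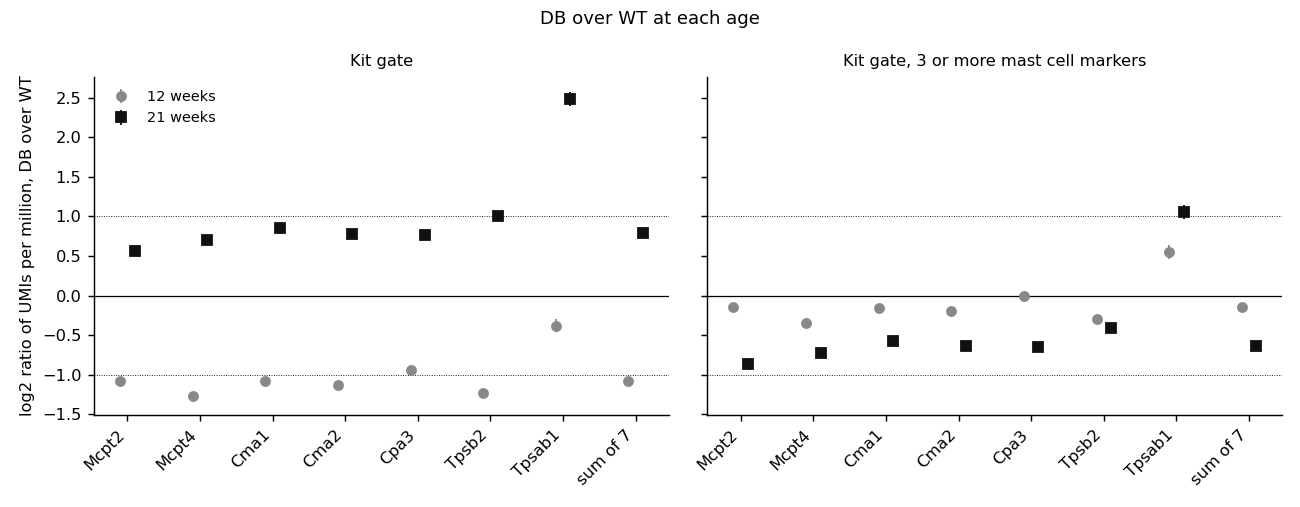
log2 ratio of CPM, DB over WT, at 12 weeks (grey circles) and 21 weeks (black squares), with exact 95% intervals from the counts and dotted lines at 2-fold, in the Kit gate (left) and in marker-supported mast cells (right). At 21 weeks 6 genes are above 0 on the left and below 0 on the right, while Tpsab1 is above 0 in both.

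Comparing 21 with 12 weeks asked how the levels differ with age in each genotype, again with the software version in parallel. In marker-supported mast cells of WT mice the summed proteases had a log2 ratio of -0.46 (-0.48 to -0.45) and all 7 ratios were below 0. None passed 2-fold lower, against 5.48% of 3943 genes, nor 2-fold higher, against 2.51%. Cma2 had the lowest ratio, -0.96 (-1.02 to -0.90), followed by Cpa3 at -0.73 (-0.78 to -0.68), and Tpsab1 was nearest to 0 at -0.20 (-0.31 to -0.10). At 1.5-fold, 4 members passed lower, against 18.7% of genes. The median over the members was -0.60 and that over all genes tested was also below 0, at -0.12. Cma2 passed 2-fold lower in 4 of 13 alternatives, down to -1.27, and Cpa3 in 1, at -1.02.

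In DB mice the summed proteases had a log2 ratio of -0.95 (-0.96 to -0.94), and its difference from WT was not tested. Cma2 (-1.41, -1.46 to -1.35), Cpa3 (-1.37, -1.42 to -1.33) and Mcpt2 (-1.05, -1.08 to -1.03) passed 2-fold lower, against 5.33% of 5744 genes. None passed 2-fold higher, against 5.29%. At 1.5-fold, 6 members passed lower, against 18.9% of genes. The median over the members was -0.99, against -0.11 over all genes tested. Cma2 and Cpa3 passed 2-fold lower in 13 of 13 alternatives and Mcpt2 in 12, with -0.99 in the other, while Mcpt4 (-0.99) passed in 5, so the number past 2-fold in WT and in DB depended on the setting. Tpsab1 was the only member above 0, with a log2 ratio of 0.30 (0.23 to 0.36).

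In the Kit gate, 7 members passed 2-fold lower at 21 weeks in WT, against 6.61% of 10289 genes, and none passed higher, against 0.884%. In DB, 1 member, Tpsab1, passed 2-fold higher (log2 ratio 1.23, 1.16 to 1.30), against 2.84% of 10882 genes, and none passed lower, against 6.68%. The median over the members was -2.02 in WT and -0.06 in DB, against -0.22 and -0.18 over all genes tested. Of the 11 genes of mast cell identity and their regulators described below, 9 passed 2-fold lower in WT and 1 passed higher in DB. The lower levels in WT were thus not particular to the proteases. The summed proteases were at -1.89 in WT and -0.02 in DB. Over 13 alternatives the 7 calls in WT each held in 10 or 12 and that of Tpsab1 in DB in 10.

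The share of each gene within the protease UMIs does not depend on the total depth or on barcodes that lack the proteases. Mcpt2 took 42.3%, 42.5%, 46.3% and 39.5% of the protease UMIs of marker-supported mast cells, and Cma1 20.1%, 19.8%, 21.3% and 22.2%. Mcpt4 stayed between 8.21% and 9.63% and Tpsb2 between 7.30% and 8.60%. Cma2 took 7.83% and 7.60% at 12 weeks and 5.55% and 5.54% at 21 weeks, and Cpa3 10.1% and 11.1% at 12 weeks and 8.40% and 8.30% at 21 weeks, so both were lower at 21 weeks in both genotypes. Tpsab1 took 1.98% in WT against 3.22% in DB at 12 weeks, and 2.38% against 7.63% at 21 weeks. Its share was thus higher in DB at both ages.

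Between the tryptases, Tpsab1 made up 19.6% of the tryptase UMIs (95% interval 18.9 to 20.4) in WT against 30.6% (29.5 to 31.7) in DB at 12 weeks, and 24.4% (23.2 to 25.6) against 47.0% at 21 weeks (46.3 to 47.7). Single barcodes with at least 10 tryptase UMIs showed the same order. Their median share was 18.1% (n = 242 barcodes), 27.8% (n = 188), 23.1% (n = 137) and 45.5% (n = 728). The middle 50% of the barcodes ran from 11.2% to 26.1% in WT and from 18.3% to 38.5% in DB at 12 weeks. At 21 weeks it ran from 13.3% to 31.3% in WT and from 36.4% to 57.0% in DB. The range of 21-week-DB overlapped that of 12-week-DB and neither of the WT ranges. The other ranges overlapped each other. Barcodes of 1 library are not replicates of a condition, and the mice within a pool could not be told apart.

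**Figure D4:**
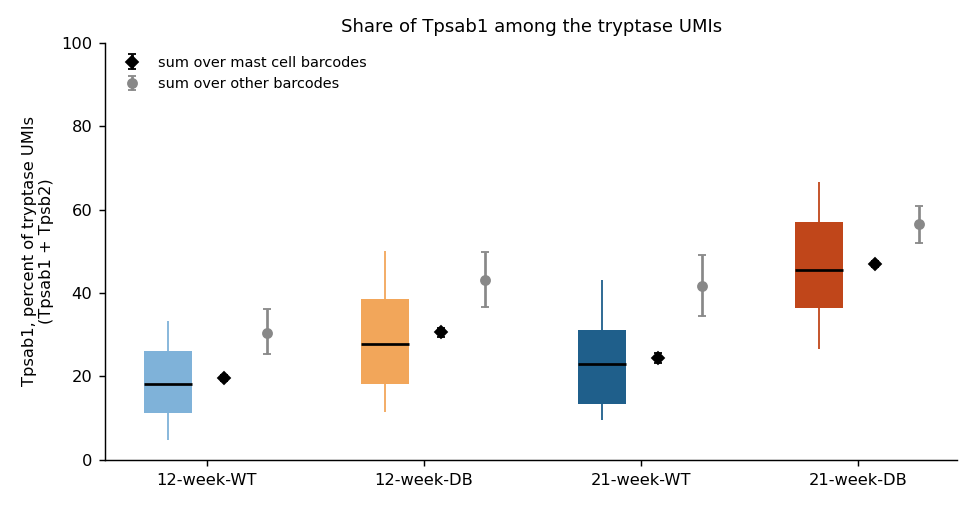
Tpsab1 as percent of the tryptase UMIs (Tpsab1 and Tpsb2) in each library. Boxes show the middle 50% of marker-supported mast cell barcodes with at least 10 tryptase UMIs, with the median as a black line and thin lines from the 10th to the 90th percentile, and points show the pooled share with its exact 95% interval in these mast cells (diamonds) and in other barcodes with under 2 markers (circles). The share is 47.0% in the mast cells of 21-week-DB and 19.6% to 30.6% in those of the other libraries.

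The spread between single cells was wide. The proteases took a median of 12.9% of a marker-supported barcode's UMIs in WT against 11.1% in DB at 12 weeks, and 9.58% against 5.76% at 21 weeks, with the 10th and 90th percentiles at 6.08% and 21.2% in 12-week-WT and at 2.83% and 10.8% in 21-week-DB. The highest single barcode held 32.9%, in 12-week-DB. For Mcpt2 the median per 10000 UMIs was 499 in WT against 413 in DB at 12 weeks, and 422 against 193 at 21 weeks, and for Tpsab1 it was 21.9, 30.8, 17.4 and 39.3. Single barcodes thus showed the low Mcpt2 and high Tpsab1 of 21-week-DB in their medians too, although the ranges of the libraries overlapped. In UMIs per barcode the summed proteases averaged 336, 271, 251 and 119, beside median total depths of 2120, 1710, 1896.5 and 1559.

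**Figure D5:**
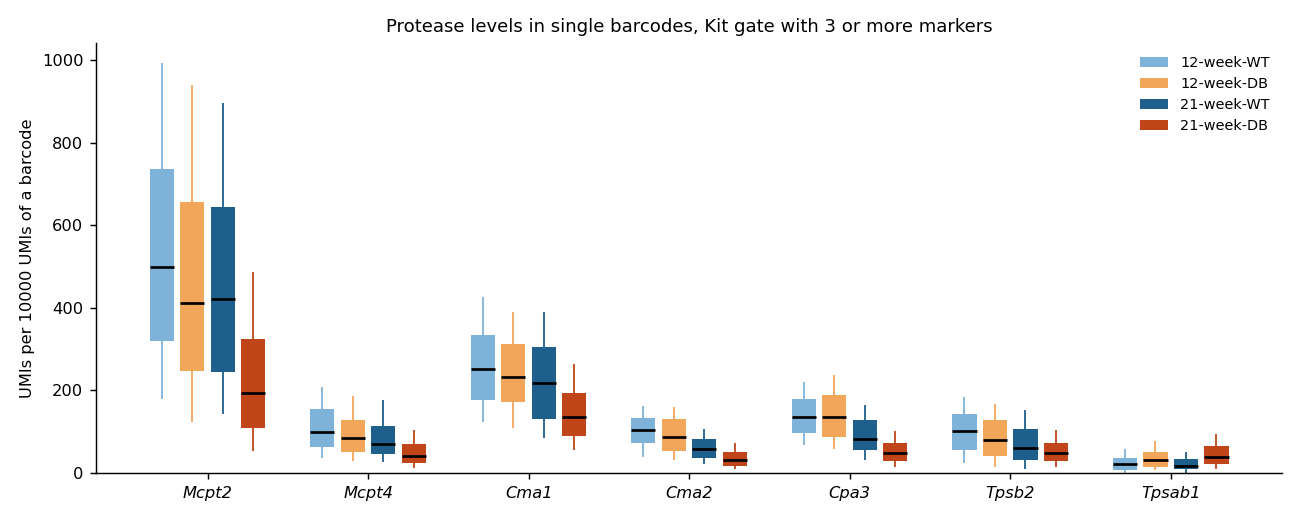
UMIs of each protease per 10000 UMIs of a barcode in marker-supported mast cells, with boxes for the middle 50% of barcodes, black lines for medians and thin lines from the 10th to the 90th percentile (n = 307, 247, 198 and 1056 barcodes). The box of 21-week-DB is the lowest of the 4 for Mcpt2 (median 193) and the highest for Tpsab1 (median 39.3).

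Levels of the 7 genes were positively correlated from cell to cell. Over marker-supported barcodes with at least 1000 UMIs (269, 206, 177 and 827 barcodes), the median Pearson correlation over the 21 pairs of members, on log2 of UMIs per 10000 plus 1, was 0.54, 0.48, 0.59 and 0.42. The lowest pair had Tpsab1 in it in every library, with r between 0.11 and 0.25. With its paralog Tpsb2, however, Tpsab1 had r of 0.59, 0.39, 0.54 and 0.51. The highest pairs were Mcpt2 with Cma1 (0.64), Mcpt2 with Cpa3 (0.66), Mcpt2 with Mcpt4 (0.76) and Cma1 with Cpa3 (0.57). Barcodes share library and depth, and the counts of Tpsab1 were the lowest of the 7 in 3 libraries, so these values are a description.

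Nearly every marker-supported barcode had a UMI of each abundant member. Mcpt2 was detected in 100%, 96.4%, 98.5% and 98.0% of them, and Cma1 in 99.5% to 100%. Tpsab1 was detected in 82.4% in WT against 92.7% in DB at 12 weeks, and 87.9% against 96.0% at 21 weeks. After each barcode was thinned to 500 UMIs, with none left out, Tpsab1 was expected in 59.8%, 73.4%, 59.1% and 81.4%. Both DB libraries remained above both WT libraries, although the barcodes of 21-week-DB were the shallowest.

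In the whole Kit gate, where most barcodes had few or no markers, Mcpt2 was detected in 55.1%, 32.4%, 26.7% and 48.7% of barcodes. The other members were detected in 20.6% to 52.0%. Mcpt2 had a UMI in 17.7%, 8.82%, 7.41% and 13.9% of all other barcodes and the other members in 1.63% to 10.8%, at median depths of 5842 to 8155 UMIs.

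Most of the protease UMIs outside the gate, 79.5%, 85.5%, 83.6% and 89.1%, were in other barcodes with 2 or more mast cell markers, so the level over all other barcodes is not a background level. These were 103 to 315 barcodes per library, 12.4% to 21.4% of them with a UMI of Kit, and they held 7.67% of all protease UMIs of the kept barcodes in WT against 11.5% in DB at 12 weeks, and 10.2% against 11.4% at 21 weeks. The remaining other barcodes, with under 2 markers, held 1.98%, 1.96%, 2.01% and 1.40%. In these the summed proteases were at 55.8, 31.4, 19.5 and 49.4 CPM, and marker-supported mast cells of the same library were 2398, 3853, 4979 and 1266 times as high.

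Macrophage barcodes (at least 5 UMIs of C1q genes, no Kit and no Cd3e) should lack the proteases. They were not limited to under 2 mast cell markers, and 4.11% of them in 12-week-WT had 2 or more. Their summed level was 59.3, 31.8, 39.9 and 41.5 CPM, beside the levels just given for all other barcodes with under 2 markers. Whether UMIs at this level are background or expression was not tested. A further class had Gata3 and Il7r, no Kit, Cd3e or Mcpt8, and under 5 UMIs of C1q genes. The proteases made up 0.00621%, 0.00371%, 0.00223% and 0.0126% of its UMIs. In macrophage barcodes they made up 0.00593%, 0.00318%, 0.00399% and 0.00415%. Among other barcodes with under 2 markers, the highest in 12-week-DB held 22.9%. Barcodes with Mcpt8, a basophil marker, that had no Kit, no Cd3e and under 5 UMIs of C1q genes were looked at apart. There were only 7, 6, 12 and 8 of them. Cpa3 took 10 of their 12 protease UMIs in 12-week-WT, 16 of 17 in 12-week-DB, 39 of 44 in 21-week-WT and 18 of 75 in 21-week-DB. Over all other barcodes the composition of the protease UMIs was close to that of the mast cells, with Mcpt2 at 42.4%, 40.6%, 45.6% and 37.0% and Tpsab1 at 2.45%, 3.32%, 2.71% and 7.998%. It differed more in those with under 2 markers. Mcpt2 took 34.6% to 39.6% of the protease UMIs there, against 39.5% to 46.3% in the mast cells, and Tpsab1 took 3.95%, 6.33%, 6.81% and 13.2%. The share of Tpsab1 among tryptase UMIs there was 30.5%, 43.1%, 41.7% and 56.5%, above that in the mast cells of the same library each time, and highest again in 21-week-DB.

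Genes whose level followed that of the summed proteases were sought over 28 points, the 7 exclusive barcode classes of each of the 4 libraries, among 15883 genes. The 10 closest were the members Cpa3 (r = 0.94), Tpsb2 (0.91) and Mcpt4 (0.90), and Mcpt9 (0.93), the serotonin transporter Slc6a4 (0.92), the serotonin-synthesizing enzyme Tph1 (0.91), the receptor Mrgprb1 (0.91), Atp8b5 (0.89), Smpx (0.89) and the transmembrane tryptase Tpsg1 (0.88). The points share libraries, and Mcpt9 is the gene with 97.8% identity to Cma2 given above. Each member is part of the sum it was compared with. The Kit gate is among the 7 classes, so high ranks of mast cell genes follow in part from how the barcodes were chosen and are no independent finding.

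Genes that assemble, fill or release the granule were compared from a fixed list of 11 (Srgn, Ndst2, Ctsc, Hdc, Slc18a2, Cd63, Vamp8, Snap23, Stxbp2, Unc13d and Rab27a). Of these genes in marker-supported mast cells, none of the 10 with enough UMIs at 12 weeks, nor of the 11 at 21 weeks, passed 2-fold between DB and WT, with medians of -0.11 and 0.05. Srgn, the serglycin core protein that binds the proteases, was at 2243 CPM in WT against 2171 in DB at 12 weeks, and 1946 against 1550 at 21 weeks. Hdc, which makes histamine, was at 1818, 2767, 2335 and 3500, higher in DB at both ages but under 2-fold. With age, Ndst2, which sulfates heparin, passed 2-fold lower in WT (-1.03, -1.40 to -0.68), and none passed in DB. For this list and those below, the shares of all genes tested that passed 2-fold higher and lower stand beside the calls. They were 1.03% and 0.93% for DB over WT at 12 weeks and 4.78% and 2.89% at 21 weeks. With age they were 2.51% and 5.48% in WT, and 5.29% and 5.33% in DB. At such shares, 0 or 1 call in a list this short is no result about the list.

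Among 7 other proteases of mast cells and basophils, Mcpt1, Mcpt8 and Prss34 had too few UMIs to compare. Gzmb, a granule serine protease also made by lymphocytes, passed 2-fold higher in DB at 12 weeks (1.34, 0.76 to 1.94) and at 21 weeks (1.45, 1.11 to 1.81), and at 21 weeks in both genotypes (1.53 in WT and 1.64 in DB). Mcpt9 passed 2-fold lower in DB at 21 weeks (-1.19, -1.33 to -1.04) and with age in DB (-1.21), and Ctsg passed 2-fold lower with age in DB (-1.23). Tpsg1 passed in none of the 4 comparisons.

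Of the 2 protease inhibitors with enough UMIs, Serpinb1a and Cst3, neither passed 2-fold in marker-supported mast cells. Among 11 genes of mast cell identity and their regulators, 0 passed at 12 weeks and Fcer1a, the IgE receptor alpha chain, passed higher in DB at 21 weeks (1.02, 0.75 to 1.30). Mrgprb2 passed lower with age in WT (-1.29) and Gata1 passed lower with age in DB (-1.14). These lists contain genes that also define the marker-supported barcodes, so their levels there are a description.

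Summed markers of other cell types differed between the mast cell barcodes of the libraries. The 5 dendritic cell genes summed to 1755, 2080, 4493 and 422 CPM in the marker-supported mast cells, the ILC2 genes to 605, 650, 830 and 1401, the macrophage genes to 1353, 1304, 795 and 992, and the 5 basophil genes to 535, 386, 305 and 218, of which Prss34 was at 0 in 21-week-DB. Within the ILC2 list, Il13 was at 127, 121, 348 and 544 CPM and Il7r at 48.0, 86.7, 86.0 and 393. The others did not follow, with Gata3 at 62.3, 90.3, 52.7 and 62.5, Rora at 23.4, 36.1, 74.2 and 58.0, and Lmo4 at 344, 316, 270 and 343. Most of the basophil sum was Cd200r3, at 481, 316, 248 and 160, while Mcpt8 was at 5.19, 1.81, 7.81 and 2.98. The sums are thus not a measure of cells of these types. The part of these genes in the differences of the proteases was not tested. All 10 mast cell markers including Kit were detected in every library, with a sum between 10616 and 15028 CPM.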

How the data were processed

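CD45+ cells of hindpaws were profiled in 4 libraries, 1 per condition. The deposited matrices hold raw UMI counts per gene and barcode, made by the authors with Cell Ranger on mm10, filtered to cell barcodes, and not normalized. Their headers name version 5.0.0 at 12 weeks and 6.0.0 at 21 weeks, whereas the study's methods do not mention the earlier version. The libraries held 5998, 7463, 8208 and 9124 barcodes with 47851794, 57025899, 69626521 and 54989592 UMIs, 12-week libraries first and WT before DB.

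Groups came from the sample labels and the ages in weeks from the study's methods. The 7 members and the gene lists were chosen with earlier results of these data known. Kept barcodes had 200 or more genes and no more than 10% mitochondrial UMIs. The gates used thresholds on single genes, with no clustering. No doublet caller was run. An alternative left out barcodes with at least 2 markers of another lineage, which here means T cells, B cells, neutrophils, ILC2, fibroblasts or melanocytes. Dendritic cell, macrophage and basophil markers were not used in it, so barcodes with those markers stayed in.

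UMIs were summed per gate and library and divided by the gate's total (CPM). The exact Poisson, Clopper-Pearson and conditional binomial 95% intervals cover counting error only. Genes with at least 50 UMIs over both libraries of a comparison were called at a 2-fold difference, with no p-value, since each condition had 1 library. Thinning gave the expected share of barcodes with a UMI at 500 UMIs. All members were named, as were list genes past 2-fold in marker-supported mast cells and the 10 genes closest to the summed members. A few further list genes (Srgn, Hdc and those below 2-fold or with too few UMIs) were named after their values were seen. Of 32285 gene IDs, 32158 matched GENCODE M21. Python 3.11.15, numpy 2.4.6, scipy 1.17.1, pandas 2.3.3 and matplotlib 3.10.9 were used, and the scripts were tested on simulated data.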

Additional observations from a re-analysis of the deposited data

Results flagged for a closer look

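In the Kit gate, the log2 ratio of DB over WT was below 0 at 12 weeks and above 0 at 21 weeks for every member. The difference between the ages (21 weeks minus 12 weeks) was 1.63 for Mcpt2, 1.97 for Mcpt4, 1.94 for Cma1, 1.91 for Cma2, 1.70 for Cpa3, 2.24 for Tpsb2, 2.86 for Tpsab1 and 1.87 for the 7 genes summed. The same gate gave opposite directions of 21 over 12 weeks in DB and WT for Cma1, Tpsb2 and Tpsab1, which by arithmetic differ by the same 1.94, 2.24 and 2.86. The directions changed in some of 13 alternatives. At 12 weeks Tpsab1 was above 0 in 4, at 21 weeks Mcpt2 was below 0 in 3, Mcpt4 in 2 and Cma1, Cma2, Cpa3, Tpsb2 and the sum in 1 each, and with age in DB Cma1 was below 0 in 4 and Tpsb2 in 3. These differences were not tested, as each condition had 1 library. Beside them, marker-supported mast cells made up 17.9%, 9.35%, 6.65% and 17.7% of the UMIs of the gate at 12 weeks in WT and DB and at 21 weeks in WT and DB.

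In marker-supported mast cells, Tpsab1 alone had opposite directions with age, with a log2 ratio of 21 over 12 weeks of -0.20 in WT and 0.30 in DB, a difference of 0.50 that was not tested. Over 13 alternatives the ratio of Tpsab1 ran from -0.53 to 0.037 in WT, above 0 in 1 of them, and from 0.20 to 0.42 in DB.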

How the results depend on the processing

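No paired analysis was possible because each condition had 1 library, and no library could be left out. Values are log2 ratios of the summed proteases, in the order DB over WT at 12 weeks, DB over WT at 21 weeks, 21 over 12 weeks in WT and in DB, and the cause of each change was not tested. In the Kit gate (-1.08, 0.79, -1.89 and -0.022) at least 1 marker beside Kit gave -0.44, 0.075, -1.06 and -0.54, at least 3 markers -0.15, -0.63, -0.46 and -0.95, and 2 markers without Kit -0.22, 0.17, -0.999 and -0.61. Leaving out barcodes with 2 markers of another lineage gave -0.19, 2.16, -2.05 and 0.30, the mean over barcodes -0.91, 0.25, -1.38 and -0.21, Kit at 2 or more UMIs -1.24, 0.62, -1.99 and -0.14, and at most 5% mitochondrial UMIs -1.20, 0.52, -1.78 and -0.055. At least 500 genes gave -1.09, 0.74 and, in DB with age, -0.065, and at least 1000 UMIs gave -1.11, 0.71 and -0.064 for the same comparisons. C1q under 10 UMIs gave 0.76 at 21 weeks and -0.047 with age in DB. At 12 weeks and with age in WT, leaving members out of the denominator gave -1.10 and -1.91, and leaving out shared barcodes -1.17 and -1.97. Tpsb2 reversed at 21 weeks, to -0.41, with at least 3 markers.

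In marker-supported mast cells (-0.15, -0.63, -0.46 and -0.95) the sum kept its sign under all 13 alternatives. The looser marker settings given above for the Kit gate were not among them. At 21 weeks these had the other sign, 0.075 with at least 1 marker beside Kit and 0.17 with 2 markers without Kit. The direction at 21 weeks thus depended on how many markers were asked for. Kit at 2 or more UMIs gave -0.12, -0.61, -0.49 and -0.98, leaving out barcodes with markers of another lineage -0.13, -0.81, -0.20 and -0.89, members out of the denominator -0.17, -0.69, -0.52 and -1.04, the mean over barcodes -0.13, -0.69, -0.33 and -0.90, and at least 2 markers -0.13, -0.38, -0.66 and -0.90. At least 3 markers without Kit gave -0.26 at 21 weeks and -0.77 and -0.88 with age in WT and DB, at least 4 markers gave -0.62 at 21 weeks, at least 1000 UMIs gave -0.96 with age in DB, at most 5% mitochondrial UMIs gave -0.16 at 12 weeks and -0.49 with age in WT, and C1q under 10 UMIs gave -0.16 at 12 weeks. Tpsab1 was higher in DB under all 13, by 0.52 to 0.57 at 12 weeks and 0.93 to 1.43 at 21 weeks. At 1.5-fold, 6 members passed higher at 21 weeks in the Kit gate, against 21.1% of all genes, and in marker-supported mast cells 4 passed lower at 21 weeks (12.3%), 4 with age in WT (18.7%) and 6 with age in DB (18.9%). The settings for marker-supported mast cells and the one on shared barcodes were chosen after seeing the data. With 1 library a condition, differences between mice, pools and library preparations could not be estimated.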
